A study of Mus musculus with 59 samples.

Results

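The genes described here encode the subunits of the mitochondrial oxidative phosphorylation complexes, measured in mouse left ventricle after myocardial infarction. Members were taken by gene symbol from the probe sets that name a single gene: symbols starting with Nduf (complex I), Sdha to Sdhd (complex II), symbols starting with Uqcr together with Cyc1 (complex III), Cycs (cytochrome c), symbols starting with Cox4 to Cox8 (complex IV) and symbols starting with Atp5 (complex V). This gave 73 genes of the 8251 on the arrays, read by 101 probe sets. Of these, 69 reached an intensity of 108.2 on at least 3 of the 59 arrays and were tested: 30 of 31 in complex I, 4 of 4 in complex II, 8 of 8 in complex III, 13 of 15 in complex IV, 13 of 14 in complex V, and Cycs. The 4 that did not were Ndufa12, Cox5a, Cox8a and Atp5j2. Ndufaf1 and Ndufaf4 carry the symbol but are assembly factors of complex I and not subunits of the finished enzyme.

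Affymetrix oligonucleotide arrays were hybridised with total RNA of ventricle pieces collected at 6 times after the operation (at 1, 4, 24 and 48 h, then at 1 and 8 weeks). From mice with an infarct came the infarct (from the left anterior descending, or LAD, coronary artery down to the apex) and the remote myocardium (left ventricle above that artery, not infarcted). The matching upper ventricle of sham-operated mice is the control here and is called sham. Each of these regions had 3 arrays per time and 18 in all, and 5 further arrays held the lower ventricle of sham mice, 1 at each time but 8 weeks. Strain, age, sex and any treatment besides surgery are not given in the labels used here. Nor do the labels say that arrays of a group came from separate animals, so the p-values measure the spread between these samples, part of which may be technical.

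Oxidative phosphorylation makes most of the ATP of the beating heart, whose muscle cells are packed with mitochondria. Complex I takes electrons from NADH and complex II takes them from succinate. Both pass them through ubiquinone to complex III, cytochrome c and complex IV, which reduces oxygen, and complex V uses the proton gradient built on the way to make ATP. Most subunits are encoded in the nucleus, as are all genes described here, and complex IV has pairs of subunit isoforms, 1 of heart and skeletal muscle and 1 found in most tissues.

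The array medians of intensity lay between 156.9 and 214.4 on a linear scale, and the lowest correlation between arrays of a group was 0.923. Changes are differences of log2(intensity + 45.6) with their standard error (SE) from limma, whose median SE against sham was 0.178. That SE, and the p-value with it, uses a spread pooled for each gene over all 23 groups of region and time. It is therefore not the spread of the arrays compared alone. A gene was called when its Benjamini-Hochberg adjusted p over 6670 genes was below 0.05. Up to 48 h the sham titles carry numbers from another range than the titles of infarct and remote pieces, so that infarction and any difference between mice handled apart cannot be told apart at those times. Infarct and remote were both compared with the same sham arrays. In bulk tissue, fewer cells of a type and less RNA per cell cannot be told apart. Arrays of a group are given, and named by rank, in the order of the number in their titles. On the third infarct array of 1 week the list of heart muscle markers was at 8.52% of its sham level, against 33.5% and 29.6% on the other 2 arrays of its group.

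In the infarct, transcripts of all 5 complexes fell between 24 h and 1 week and lay close to sham again on 1 of 3 arrays at 8 weeks. At 1 h, 0 of 69 members were lower than in sham by limma (1 at an unadjusted p below 0.05), where 3.12% of all genes were lower. At 4 h 1 member was lower, against 6.69% of all genes. The count of lower members was 44 at 24 h, where 24% of all genes were lower. It was 63 at 48 h (25.8% of all genes) and 61 at 1 week (25.7% of all genes). At 8 weeks it was 42, against 9.66% of all genes. The median change of the members was -0.48 at 24 h, -1.04 at 48 h, -1.97 at 1 week and -0.52 at 8 weeks. The median of all genes tested was -0.02, -0.04, 0.11 and -0.01 at the same times. At least 2-fold lower on this scale were 37 members at 48 h and 59 at 1 week. The share of all genes at that bound was not counted, here or for the 2-fold counts further on.

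The single arrays showed the same course. The median intensity of the members as a percentage of their sham mean was 67.7%, 69.4% and 74.0% on the 3 infarct arrays at 24 h. It was 43.9%, 44.7% and 56.7% at 48 h and 29.4%, 30.1% and 18.6% at 1 week. At 8 weeks it was 92.4%, 75.4% and 49.4%. Every infarct array at 24 h, 48 h and 1 week lay below all sham arrays of its time, while the 8-week arrays spread from near sham to about the level of 48 h. The third array was the lowest of its group for 60 of 69 members at 1 week and for 62 of 69 at 8 weeks. Without the third array the members lower at 1 week were 61 again, with a median of -1.76 and 24.0% of all genes lower. Without the third array of 8 weeks only 7 members were lower at 8 weeks (5 of complex I, 1 of complex IV and 1 of complex V), with a median of -0.28 and 3.70% of all genes lower, so the 8-week count rests on that array. The heart muscle marker list stood at 85.4%, 74.6% and 59.98% of sham on the 3 infarct arrays at 8 weeks, and at 47.7%, 45.5% and 66.1% at 48 h. The fibroblast markers summed to 32387, 47654 and 64431 on the 3 infarct arrays at 8 weeks, against 22136 to 26992 in sham. Adiponectin (Adipoq), a fat cell marker, was at 74.9, 835.5 and 3442 on them, against 113.7, 93.9 and 100.2 in sham, and Car3, another fat cell marker, at 31.6, 864.5 and 2904. The third array, lowest for the members, was thus highest for the fibroblast sum, Adipoq and Car3. Of 5 measured fat cell markers 3 were higher and 1 lower in the infarct at 8 weeks, where 9.66% of all genes were lower. Their median change was 1.10. The summed intensity of the list did not follow Adipoq and Car3, which were a small part of it in sham. It was 15909, 12267 and 15083 on the infarct arrays at 8 weeks, against 17298, 17755 and 17538 in sham. At 1 week that sum was 4897 to 6260 in the infarct and 15718 to 19278 in sham. Of the 5 markers 2 were then higher and 1 lower in the infarct, against 34.9% and 25.7% of all genes. Their median change was 0.41. Adipoq was also highest on the third array at 1 week, with 1571 in the infarct and 1178 in remote tissue, and it stood at 2658 on the first remote array of 4 h. The part of heart muscle, fibroblast and fat cell markers in the fall of the members was not tested.

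**Figure D1:**
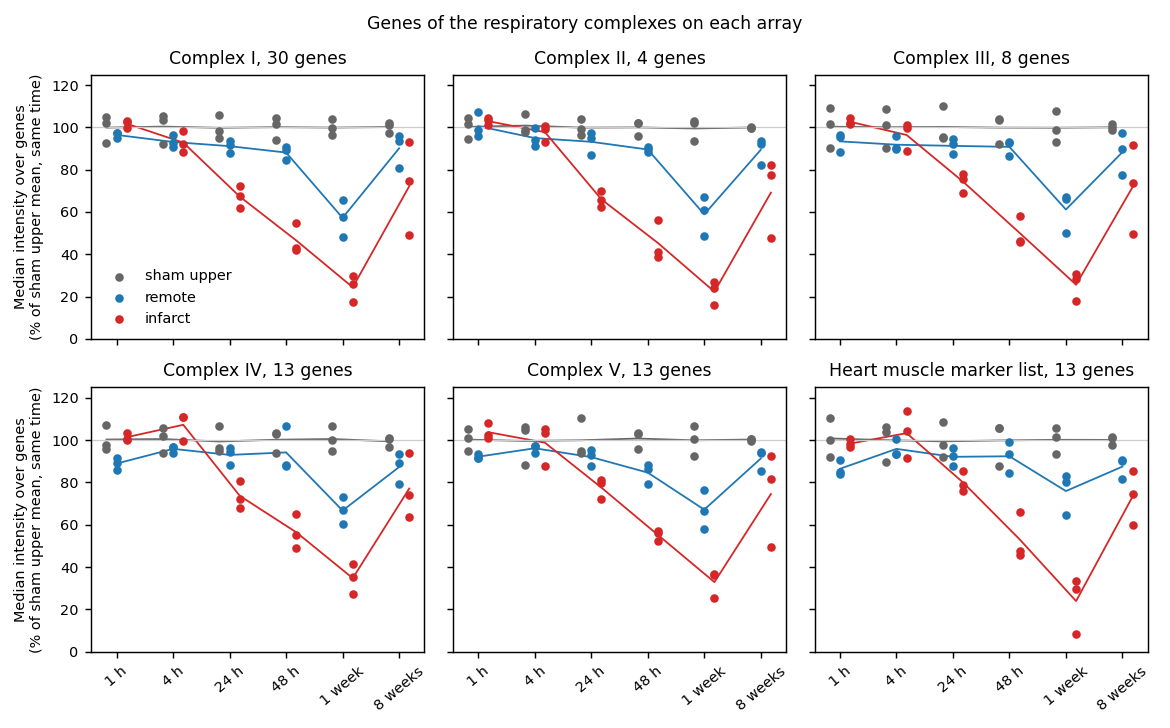
Median intensity of the members of each complex, and of the heart muscle marker list, on every array as a percentage of the mean of the sham arrays of the same time (y axis) against time after surgery (x axis). Points are arrays, lines join group means of the infarct, remote and sham arrays. At 1 week the infarct arrays lie between 17.6% and 29.6% for complex I and between 27.4% and 41.4% for complex IV. Over all members, which have no panel here, the infarct arrays fall to between 18.6% and 30.1% at 1 week. They spread from 49.4% to 92.4% at 8 weeks, and the remote arrays fall to between 50.4% and 67.8% at 1 week.

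Complex I, which oxidises NADH, had 25 of 30 measured genes lower in the infarct at 24 h, 28 at 48 h, 28 at 1 week and 21 at 8 weeks. The medians were -0.55, -1.07, -2.09 and -0.53. Ndufb10, an accessory subunit of the membrane arm, had sham intensities of 13535, 13071 and 12011 at 1 week. The infarct arrays gave 2668, 2641 and 1496 and the remote arrays 7829, 6935 and 5552. The 3 groups did not overlap, with sham highest and infarct lowest. Ndufb10 thus fell by 2.53 ± 0.17 against sham (limma, adjusted p = 1.1e-15). Its fall had been 0.78 ± 0.17 at 24 h and 1.52 ± 0.17 at 48 h, and at 8 weeks the infarct arrays stood at 10720.5, 8193 and 4593 against 11523, 11172 and 11275 in sham.

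Ndufb3, another accessory subunit of the membrane arm, had the greatest change of complex I at 1 week. Its intensities were 11516, 10621 and 9705 in sham and 2239.7, 1819 and 1272 in the infarct, a change of -2.58 ± 0.24. Ndufb9 changed by -2.49 ± 0.17. Of the subunits that handle electrons, Ndufs1, which carries iron-sulfur clusters, changed by -2.49 ± 0.17 and Ndufv1, which binds NADH, by -2.07 ± 0.15. Ndufab1, the mitochondrial acyl carrier protein that also serves fatty acid synthesis, changed by -2.16 ± 0.18. The assembly factors Ndufaf1 and Ndufaf4 moved with the subunits, with -2.09 ± 0.16 and -1.45 ± 0.19.

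Ndufs1 was also the only member called higher in the infarct at 1 h, where 3.66% of all genes were higher. The sham arrays gave 5900.3, 4862 and 8142 and the infarct arrays 8887, 9323 and 8871, a change of 0.55 ± 0.17 (limma, adjusted p = 0.042). The infarct arrays were close together and the sham arrays spread widely, and sham was lower on average at 1 h than at the other times, with 7699.7, 7207 and 8187 at 4 h. The call was lost without any 1 infarct array and without the first or the second sham array. The 2 complex I genes that were not called at any time in the infarct were Ndufa1 and Ndufc2. They changed by 0.02 ± 0.19 and -0.05 ± 0.28 at 1 week. Ndufc2 lay near background, with sham intensities of 47.7, 62.5 and 53.1 at 1 week, below the threshold of 108.2.

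Complex II, the succinate dehydrogenase shared with the citric acid cycle, had all 4 genes lower in the infarct at 24 h, 48 h, 1 week and 8 weeks, with medians of -0.60, -1.20, -2.12 and -0.53. Sdha, the flavoprotein that oxidises succinate, had 2923, 3264 and 2862 in sham and 635, 610.3 and 405 in the infarct at 1 week. Every infarct array was below every sham array, and the change was -2.38 ± 0.18. Sdhb, the iron-sulfur subunit, gave 14091, 13364 and 11994 in sham and 3507, 3627 and 2004 in the infarct, a change of -2.14 ± 0.15. The membrane anchors Sdhc and Sdhd changed by -2.11 ± 0.13 and -2.07 ± 0.13. The 4 subunits thus lay within a narrow range of changes at 1 week, and Sdhc had the smallest adjusted p of complex II (2.2e-16 by limma). Without the third array the 8-week median of the complex was -0.34 and the calls were lost.

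Complex III, which moves electrons from ubiquinol to cytochrome c, had 5 of 8 genes lower at 24 h, 8 at 48 h, 8 at 1 week and 7 at 8 weeks, with medians of -0.44, -0.98, -1.96 and -0.53. Uqcrc1, a core protein, was the single member lower at 4 h. Its 4-h intensities were 12868, 15649.5 and 14191 in sham and 9542, 10543 and 10842 in the infarct, a change of -0.46 ± 0.15 (limma, adjusted p = 0.042). That call was lost without any 1 infarct array and without the second or the third sham array. At 1 week they were 11778, 13933 and 12882 and 2922, 2780.3 and 1753, a change of -2.38 ± 0.15. Uqcr11, a small subunit, had the greatest change of the complex at 1 week: 14229, 13412 and 13082 in sham against 2868, 2946 and 1655, or -2.47 ± 0.17. The other core protein, Uqcrc2, changed by -2.18 ± 0.20. The smallest changes of the complex belonged to Uqcrq (-1.69 ± 0.14) and to Cyc1, cytochrome c1 (-1.73 ± 0.13). Cyc1 was bright, with 21620.4, 21364 and 19293 in sham and 6983, 7839 and 4399 in the infarct. A second Cyc1 probe set went the other way, by 0.43.

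Cycs, the mobile electron carrier between complexes III and IV, had 3930.2, 3789.9 and 3520.2 in sham, 2179.8, 1887 and 1698 in remote tissue and 1202, 1106 and 489.5 in the infarct at 1 week. The 3 groups were ordered without overlap. The infarct fell by 2.05 ± 0.23 and the remote tissue by 0.95 ± 0.23 against sham. At 24 h Cycs was not called (-0.38 ± 0.23), and at 48 h it was called lower, with -1.28 ± 0.23.

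Complex IV, cytochrome c oxidase, reduces oxygen to water, and of the 5 complexes it had the widest range of changes in the infarct at 1 week. At that time 9 of 13 genes were lower, with a median of -1.42 and changes from -3.93 to 0.39. The count was 5 at 24 h, 10 at 48 h and 4 at 8 weeks, with medians of -0.40, -0.81 and -0.45. Its 3 greatest falls at 1 week were all muscle isoforms. Cox7a1, the muscle form of subunit 7a, had 10617, 10444 and 10099 in sham and 1321, 1314 and 126 in the infarct. All infarct arrays were far below sham and the third was near the threshold of detection. The change was -3.93 ± 0.37 (limma, adjusted p = 3.5e-12), and -2.96 without that array. Cox8b, the muscle form of subunit 8, gave 11434, 8869.8 and 8744 in sham and 1348, 1498 and 314 in the infarct, a change of -3.39 ± 0.27, and -2.74 without the third array. Cox6a2, the muscle form of subunit 6a, gave 24186, 23439 and 20218 in sham and 5453, 6727 and 1325 in the infarct. Its change was -2.61 ± 0.26, and -1.91 without that array, where the median of complex II was -1.95. The heart muscle marker list was lowest on the same array. The SE and p-values of these genes, pooled over all groups, do not show how far that array lies from the others.

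The isoforms found in most tissues had smaller changes. Cox6a1, the partner of Cox6a2, had 5890.5, 6064 and 6201 in sham and 4933, 5477 and 5199 in the infarct at 1 week. The infarct arrays were all just below sham, and the difference of -0.22 ± 0.11 was not called (limma, adjusted p = 0.089). Cox6a1 was read by 1 probe set, with the suffix f_at in its name, at 4290 to 7894 over the 59 arrays. Its changes and its ratio to Cox6a2 rest on that probe set. Whether the probe set reads Cox6a1 alone was not tested. In remote tissue at 48 h Cox6a1 was called higher, with 7058, 7589 and 7894 against 5954, 4668 and 5861 in sham (0.46 ± 0.11). Cox7a2, the partner of Cox7a1, did fall, from 14500.3, 13929 and 13119 in sham to 4058, 4179.6 and 2819 in the infarct (-1.92 ± 0.14). Cox8a, the partner of Cox8b, did not reach 108.2 on any array.

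The ratio of the muscle form to its partner was compared within time over 18 arrays a region. A two-sided permutation test was used, with 100000 permutations of region labels within each time, adjusted over 9 tests. Unlike the limma fit, the permutations took no account of the title number, which recurs between infarct and remote arrays. The log2 ratio of Cox6a2 to Cox6a1 differed from sham by -0.715 in the infarct, as the mean of the 6 times (permutation test, adjusted p = 0.00016). The infarct mean was below sham at 6 of 6 times, but by little at first. The differences were -0.02, -0.09 and -0.12 at 1, 4 and 24 h, with overlapping arrays. They were -1.01, -2.39 and -0.67 at 48 h, 1 week and 8 weeks. At 1 week the log2 ratio was 2.03, 1.94 and 1.70 in sham, 0.14, 0.29 and -1.94 in the infarct, and 1.57, 1.89 and 1.30 in remote tissue. The infarct arrays lay below all others, and 1 remote array lay within the sham range. At 8 weeks, when the falls of the single genes had become small, the ratio was 2.14, 2.22 and 2.34 in sham, 1.89, 1.95 and 1.77 in remote tissue and 1.66, 1.502 and 1.53 in the infarct, without overlap between the 3 groups. Over the 6 times remote minus sham was -0.309 (adjusted p = 0.00015, below sham at 6 of 6 times) and infarct minus remote was -0.407 (adjusted p = 0.021, below remote at 3 of 6 times). The last call was lost without the first or the second remote array of 1 week (adjusted p = 0.052 and 0.058).

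For Cox7a1 to Cox7a2 the mean difference from sham was -0.631 in the infarct (permutation test, adjusted p = 0.00014, below sham at 5 of 6 times). The single differences were 0.02, -0.19 and -0.36 at 1, 4 and 24 h. They were -1.01, -2.02 and -0.24 at 48 h, 1 week and 8 weeks. In remote tissue the mean difference was -0.224 (adjusted p = 9e-05, 6 of 6 times), from a raw p of 1e-05 that is the smallest these permutations can give. At 1 week the log2 ratio was -0.45, -0.41 and -0.38 in sham, -1.59, -1.64 and -4.06 in the infarct and -0.71, -0.92 and -0.93 in remote tissue, without overlap. The third infarct array gave the lowest ratio of both pairs. For Cox8b to Cox8a no difference is given here, because Cox8a had a mean intensity of 26.2 and reached the threshold on 0 of 59 arrays.

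**Figure D2:**
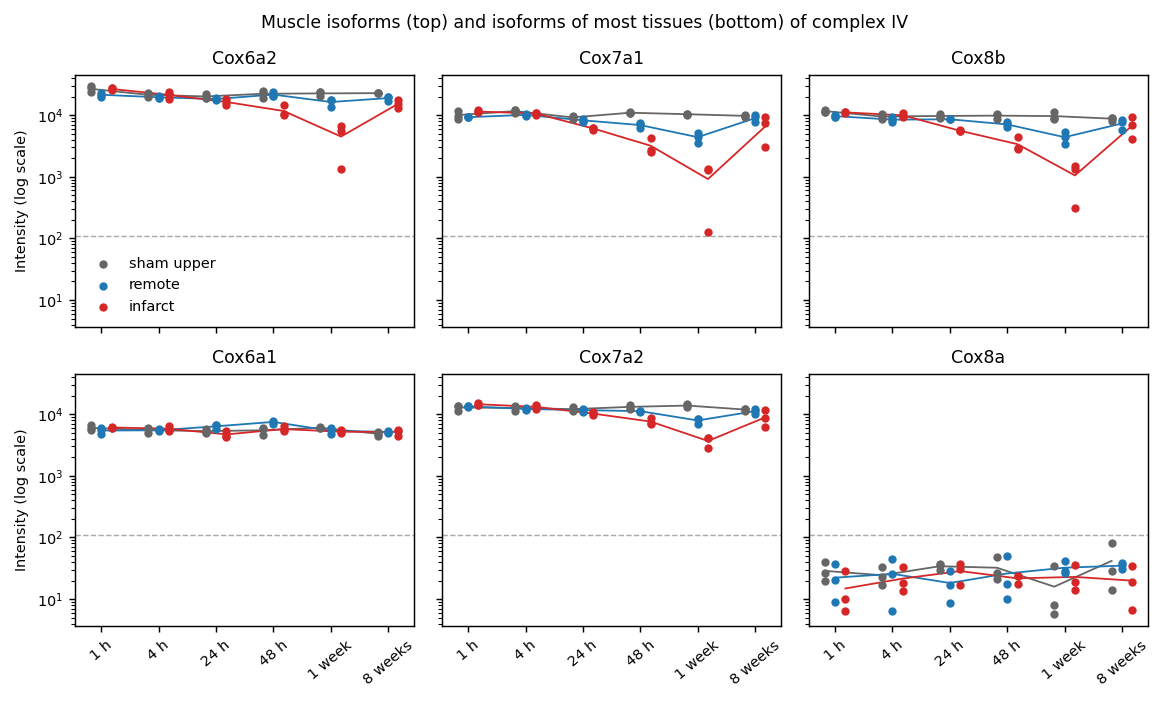
Intensity (log axis) of 3 muscle isoforms of complex IV (top row: Cox6a2, Cox7a1, Cox8b) and their partners found in most tissues (bottom row: Cox6a1, Cox7a2, Cox8a) on each infarct, remote and sham array against time after surgery. The dashed line marks the threshold of 108.2. Cox7a1 falls to 126 on 1 infarct array at 1 week, Cox6a1 stays between 4933 and 5477 there, and Cox8a lies below the threshold on every array.

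Among the other complex IV genes, Cox7b changed by -1.96 ± 0.18, Cox5b by -1.95 ± 0.15, Cox6c by -1.15 ± 0.11 and Cox7a2l, which takes part in joining complexes III and IV, by -0.91 ± 0.13 in the infarct at 1 week. Cox4i1, the common form of subunit 4, gave 1208, 957 and 891 in sham and 360.2, 421 and 279 in the infarct (-1.42 ± 0.16). Its second probe set, with a mean intensity of only 133, went the other way by 0.29. Cox6b1 and Cox6b2 were not called at any time in the infarct, with -0.06 ± 0.25 and 0.06 ± 0.29 at 1 week. Cox8c, a form of subunit 8 known from testis, was the only member called higher at 1 week, where 34.9% of all genes were higher. It gave 574, 629.8 and 633 in sham and 862, 819 and 769 in the infarct (0.39 ± 0.15, limma adjusted p = 0.022). All infarct arrays were above sham, but sham itself was low at that time, with 1024, 1209 and 895 at 48 h and 1151, 1268 and 1206 at 8 weeks. Against the single sham lower array the same difference was -0.35, and at 48 h Cox8c was called lower (-0.43 ± 0.15). The 1-week call was also lost without the first sham or the first infarct array.

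Complex V, the ATP synthase, had 5 of 13 genes lower at 24 h, 12 at 48 h, 11 at 1 week and 6 at 8 weeks, with medians of -0.39, -0.83, -1.64 and -0.40. Atp5o, the protein that ties the catalytic head to the stator stalk, gave 16522, 16003 and 13583 in sham, 9993, 9490.3 and 7742 in remote tissue and 3549, 3927 and 2453 in the infarct at 1 week. The 3 groups did not overlap, and the infarct fell by 2.22 ± 0.16 against sham. Atp5e, the epsilon subunit of the head, changed by -2.05 ± 0.17 and Atp5k, a small subunit of the membrane part, by -2.03 ± 0.20. Atp5a1, the alpha subunit of the head, changed by -1.35 ± 0.11.

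Of the genes for the membrane ring of complex V, Atp5g2 changed by -0.70 ± 0.14 at 1 week. Atp5g1 was not called then (-0.15 ± 0.29), although it was lower at 48 h (-1.44 ± 0.29). Its sham arrays gave 296, 308 and 276 at 48 h but 97.7, 92.4 and 82.2 at 1 week, and its infarct arrays 78, 81.9 and 78.9 and 72.2, 81 and 78. The control level was thus low at 1 week, and the infarct level was near background at both times. Atp5pb, a part of the stator stalk, was not called at any time in the infarct (-0.00 ± 0.23 at 1 week).

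In the remote myocardium the same complexes were lower at 1 week. At 1 h, 1 of 69 members was lower than sham and 2.5% of all genes were. At 4 h and 24 h, 0 members were lower by limma (1 and 2 at an unadjusted p below 0.05), with 0.315% and 1.56% of all genes lower. At 48 h, 2 members were lower, against 4.35% of all genes. At 1 week 60 of 69 members were lower, where 17.7% of all genes were lower. At 8 weeks 0 members and 0% of all genes were lower by limma, with 2 members and 213 genes at an unadjusted p below 0.05. The median change of the members was -0.18 at 48 h, -0.73 at 1 week and -0.15 at 8 weeks.

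The 1-week fall in remote tissue was smaller than that in the infarct and included every complex: 28 of 30 genes of complex I (median -0.82), 4 of 4 of complex II (-0.76), 8 of 8 of complex III (-0.69), 8 of 13 of complex IV (-0.58), 11 of 13 of complex V (-0.56), and Cycs. At least 2-fold lower were 11 members. The members stood at 67.8%, 62.9% and 50.4% of sham on the 3 remote arrays at 1 week, all below the sham arrays, and the third was the lowest for 62 of 69 members. Without it 57 were lower, with a median of -0.65 and 14.7% of all genes lower. The heart muscle marker list on these arrays was at 83.0%, 80.2% and 64.6% of sham. The lower ventricle of sham at that time had 1 array, which stood at 88.2% of the sham upper mean. Against it the median was -0.50 and 28 members were lower, with the share of all genes not counted.

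The 3 greatest remote changes at 1 week were all in complex I. Ndufv3, an accessory subunit at the NADH-binding end, gave 5419.5, 4549 and 4878 in sham and 2132, 1547 and 1717 in remote tissue, without overlap (-1.45 ± 0.19). Ndufa13 changed by -1.28 ± 0.24 and Ndufaf1 by -1.26 ± 0.16. Sdha changed by -1.10 ± 0.18, Uqcr11 by -0.92 ± 0.17 and Atp5o by -0.76 ± 0.16. Of the muscle isoforms, Cox7a1 gave 5166, 4476 and 3572 and Cox8b 5375, 4368 and 3447 in remote tissue, changes of -1.24 ± 0.37 and -1.14 ± 0.27. Cox6a2 gave 17777, 17737 and 13636, with every array below sham, but its change of -0.47 ± 0.26 was not called (limma, adjusted p = 0.15).

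Before 1 week few members were called in remote tissue. At 48 h Ndufs4, an accessory subunit of complex I, averaged 278 ± 29.2 in sham and 117 ± 49.8 in remote tissue (SD, n = 3) (-1.03 ± 0.18), and Ndufaf1 changed by -0.55 ± 0.16. Called higher at 48 h were 2 members, where 4.47% of all genes were: Cox6a1, given above, and Ndufc2. The Ndufc2 intensities were 18.6, 17.5 and 14.9 in sham and 84.1, 70 and 142 in remote tissue, so its call rests on values near background. At 1 h Ndufb3 and Ndufaf4 were called higher, where 5.52% of all genes were, by 0.77 ± 0.24 and 0.61 ± 0.19. For Ndufb3 the sham arrays gave 6006, 4069 and 5482 at 1 h, below the 11516, 10621 and 9705 of sham at 1 week, and the remote arrays 10059, 7794 and 8542. Cox8c was the member called lower at 1 h (-0.50 ± 0.15). The 1-h calls rest on single arrays: both rises were lost without any 1 remote array or without the first or the second sham array, and the fall of Cox8c without the first or the second array of either group. At 48 h the 2 rises became 1 without the second sham or the third remote array. The 2 falls became 1 without the second or the third sham array or the first remote array, and 4 without the second remote array.

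**Figure D3:**
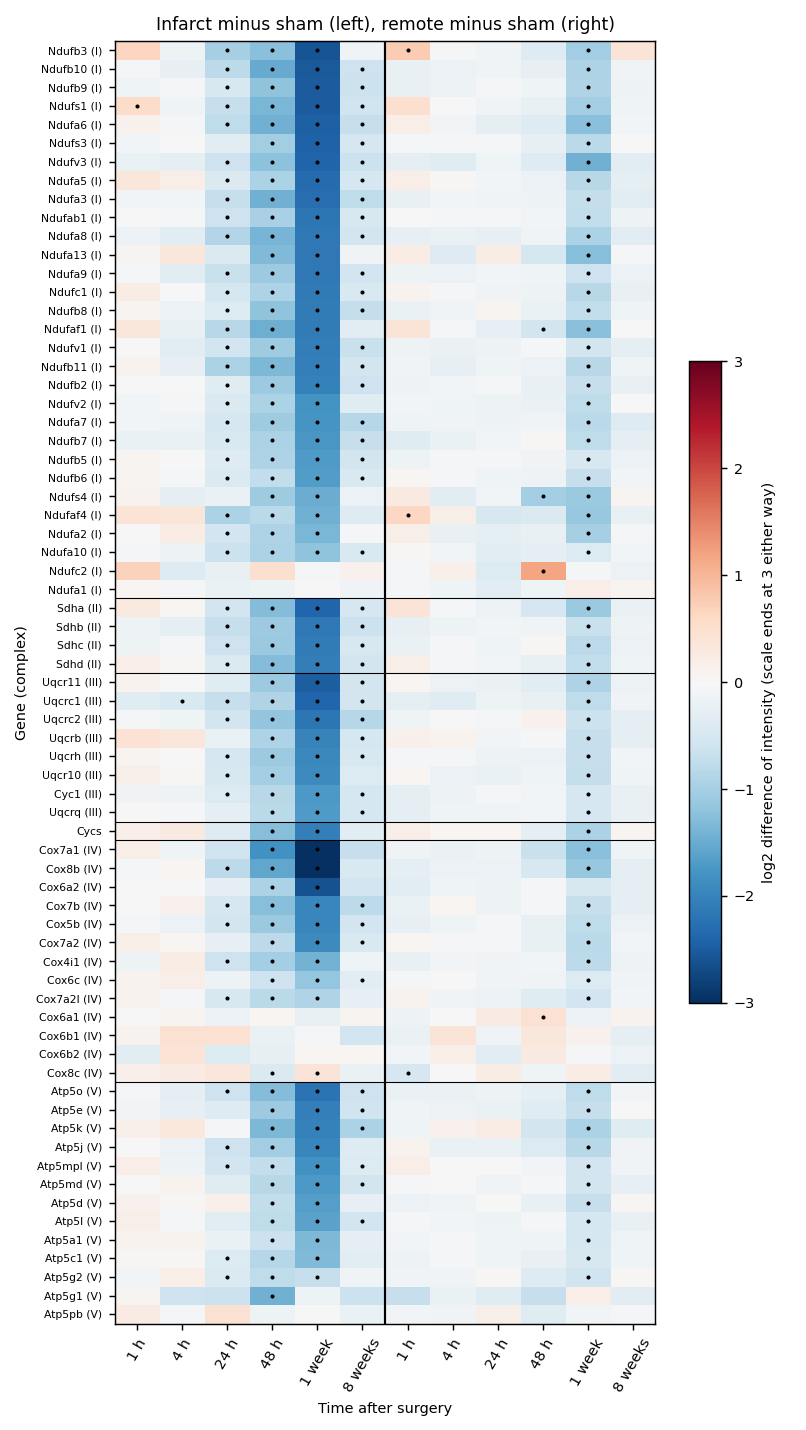
Change of each of the 69 tested members (rows, grouped by complex) on the log2 scale, for infarct minus sham (left 6 columns) and remote minus sham (right 6 columns) at each time after surgery. Colour gives the log2 difference and dots mark an adjusted p below 0.05 by limma. In the infarct 44, 63, 61 and 42 members are lower at 24 h, 48 h, 1 week and 8 weeks, and in remote tissue 60 are lower at 1 week.

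Infarct and remote pieces were also compared with each other. The sham arrays do not enter these differences, but they share in the estimate of spread behind the calls. At 1 h and 4 h, 0 members were lower in the infarct by limma (0 and 0 at an unadjusted p below 0.05), where 1.92% and 0.72% of all genes were. The count was 35 at 24 h (17.8% of all genes), 63 at 48 h (23.6%) and 57 at 1 week (18.4%). It was 13 at 8 weeks (2.71%). The median differences were -0.36, -0.81, -1.19 and -0.34 from 24 h on. At 1 week 45 members were at least 2-fold lower in the infarct: the medians were -1.21 for complex I, -1.33 for complex II, -1.27 for complex III, -0.74 for complex IV and -1.08 for complex V.

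With all arrays kept, the muscle isoforms of complex IV again stood lowest against remote tissue at 1 week. Cox7a1 was at -2.69 ± 0.34, Cox8b at -2.25 ± 0.25 and Cox6a2 at -2.14 ± 0.24. Uqcrc1 differed by -1.62 ± 0.14, Ndufb9 by -1.60 ± 0.16, Sdhb by -1.46 ± 0.14 and Atp5o by -1.46 ± 0.15. Cox8c was the single member higher in the infarct at 1 h, where 3.16% of all genes were, with 1514, 1072 and 1131 in the infarct and 693, 778 and 815 in remote tissue (0.66 ± 0.14), a call lost without the first remote array. Single arrays moved some counts by more than 1.5 times. At 24 h the count of 35 became 15 and 20 without the second and the first infarct array, and 16 and 20 without the first and the second remote array. At 8 weeks the count of 13 became 0 without the third infarct array or the second remote array, 1 and 3 without the first and the third remote array, and 45 without the first infarct array.

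The course over time was tested directly. The infarct effect differed between the 6 times for 63 of 69 members (limma F test), against 64.7% of all genes. From 1 week to 8 weeks the infarct effect moved for 62 of 69 members, 61 upward, against 36.8% of all genes, with a median of 1.41 over the members. The median rise was 1.52 in complex I, 1.57 in complex II, 1.46 in complex III, 1.19 in complex IV and 1.10 in complex V. The 1 that moved down was Cox8c. All 61 members lower at 1 week had been lower at 48 h, 44 of them also at 24 h. Of the 42 members lower at both 1 week and 8 weeks, 0 had a greater change at 8 weeks. The share of all genes lower at such sets of times was not counted. In remote tissue the effect rose for 28 of 69 members, against 16.5% of all genes with a change in either direction, with a median of 0.59 over the members. That count was 13 without the third remote array of 1 week and 18 without the third sham array of 8 weeks.

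At 8 weeks the members that stayed below sham in the infarct included Uqcrc2 (-0.85 ± 0.20), Ndufa7 (-0.86 ± 0.15), Atp5k (-0.94 ± 0.20) and Cox7b (-0.78 ± 0.18), named after their values were seen. Without the third infarct array these were -0.58, -0.62, -0.59 and -0.64, and the call of Uqcrc2 was lost. Uqcrc2 had 15832, 14814 and 13883 in sham and 11327, 8845 and 5478 in the infarct, the lowest on the third array. The muscle isoforms Cox7a1 and Cox8b, lowest of all members at 1 week, were not called at 8 weeks. Cox7a1 gave 9392, 7393 and 3077 and Cox8b 9386, 6971 and 4036 in the infarct, against 9817, 10261 and 9239 and 9147, 9142 and 8102 in sham. For both, 1 infarct array lay within or above the sham range and the third array far below it.

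Whether a member was called at 1 week went with its level. Of 60 members with a mean sham intensity of 1000 or more, 59 were lower in the infarct and 58 in remote tissue, with Cox6a1 as the exception in both and Cox6a2 in remote tissue. Of the 9 dimmer members, 2 were lower in each: Ndufaf4 and Ndufs4. The other 7 were Atp5g1, Atp5pb, Cox6b1, Cox6b2, Cox8c, Ndufa1 and Ndufc2. At the bright end, the 10 members at 15000 or more had a median of -1.69 in the infarct and -0.51 in remote tissue, against -2.08 and -0.77 for the 50 members from 1000 to 15000, bounds chosen after the levels were seen. The highest intensity on any array was 35489. Whether bright probe sets understate a change was not tested.

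**Figure D4:**
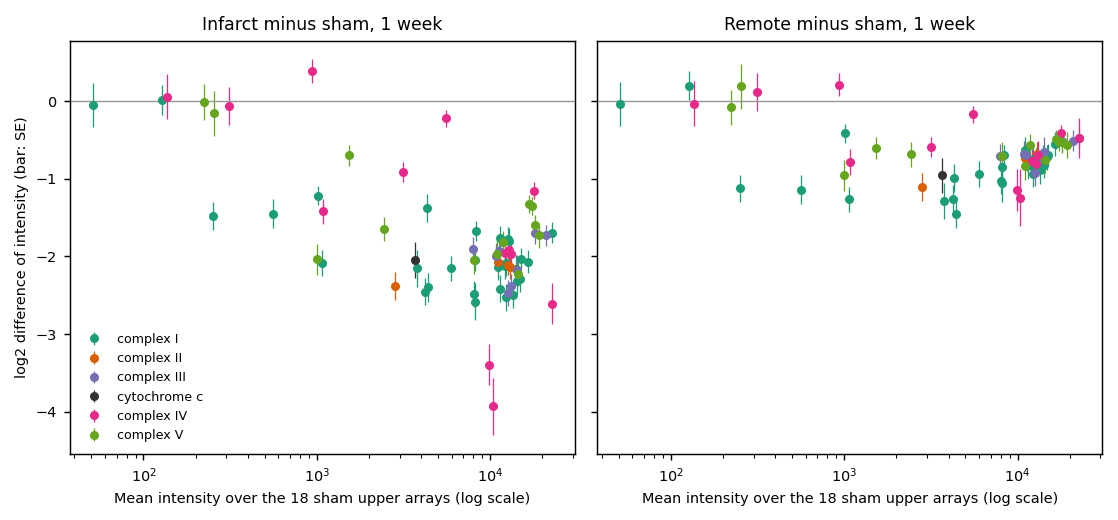
Change of each tested member at 1 week (log2 difference from sham, y axis, bars are SE) against its mean intensity over the 18 sham arrays (x axis, log scale), for infarct (left) and remote tissue (right), coloured by complex. Of the members at 1000 or more, 59 of 60 are lower in the infarct, and of the 9 dimmer members Ndufaf4 and Ndufs4 are lower and Cox8c is higher there.

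Other genes of mitochondrial energy supply were also lower at 1 week, where 25.7% of all genes in the infarct and 17.7% in remote tissue were lower. Of 18 citric acid cycle genes listed, 15 were measured. Of these, 12, 15, 15 and 10 were lower in the infarct at 24 h, 48 h, 1 week and 8 weeks, and 15 in remote tissue at 1 week. Their median at 1 week was -2.30 in the infarct and -0.88 in remote tissue. The greatest infarct changes were those of Idh2 (-3.47), which makes NADPH in mitochondria, and Ogdh (-2.75), a subunit of the oxoglutarate dehydrogenase. Of 9 measured genes that feed electrons to ubiquinone or make it, 7 were lower and 1, Dhodh, was higher (2.001) in the infarct at 1 week, led by Coq9 of ubiquinone synthesis (-3.42) and Etfb of the electron transfer flavoprotein (-2.93). The counts in remote tissue were again 7 and 1. Of 9 measured genes of exchange across the inner membrane, 6 were lower in the infarct and 5 in remote tissue. They included Slc25a11 (-2.999), the oxoglutarate carrier, and Ckmt2 (-2.87), the mitochondrial creatine kinase of muscle. Of 33 genes listed for the assembly of the complexes and steps tied to it, 12 were measured. Of these, 9 were lower in the infarct and 10 in remote tissue, among them Lrpprc (-1.91) and Higd2a (-1.14).

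Regulators of mitochondrial genes went both ways. Of 15 measured, 6 were lower and 5 higher in the infarct at 1 week, where 25.7% of all genes were lower and 34.9% higher. The count of higher regulators was thus near the share over all genes. In remote tissue 7 were lower, against 17.7% of all genes, and 2 higher, with the share of all genes higher not given here. Ppara, the nuclear receptor of fatty acid oxidation, changed by -2.72 in the infarct and -1.38 in remote tissue. Ppargc1a, the coactivator that drives mitochondrial biogenesis, changed by -2.33 and -0.999, with a mean intensity of only 39.1 in the infarct. The 5 that were higher in the infarct were Hif1a (1.29), Myc (1.78), Pprc1, Sp1 and Yy1, named after their values were seen.

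Factors of the NRF1, ETS (GABP) and ERR families are known to bind promoters of these subunit genes. RefSeq promoters from 250 bases before to 50 after the gene start on GRCm38.p6 were at hand for 59 members, 64 promoters in all. The NRF1 core CGCATGCG, searched on both strands, was in 15.6% of them, against 1.87% of 32841 promoters. The ETS motif CCGGAAGT was in 6.25%, against 3.89%, and the ERR alpha motif TCAAGGTCA in 1.56% (Sdhd alone), against 0.423%. The NRF1 core was in 2 of 4 promoters of complex III, 4 of 15 of complex V, 1 of 11 of complex IV, 2 of 30 of complex I, 0 of 3 of complex II and the 1 of Cycs. Uqcr11 held both it and the ETS motif. Its promoter (chr10:80406792-80406971, minus strand) and that of Atp5g2 (chr15:102671018-102671197, minus strand) are shown from 150 bases before to 30 after the start. They were taken by the number of motif matches and then by symbol, without regard to the change. Cox8a, which was not tested, came first by that order and is not shown. In the infarct at 1 week Uqcr11 fell by 2.47 ± 0.17 and Atp5g2 by 0.70 ± 0.14. Capitals mark the NRF1 core and, in Uqcr11, the ETS motif, which comes first and does not overlap it.
Uqcr11: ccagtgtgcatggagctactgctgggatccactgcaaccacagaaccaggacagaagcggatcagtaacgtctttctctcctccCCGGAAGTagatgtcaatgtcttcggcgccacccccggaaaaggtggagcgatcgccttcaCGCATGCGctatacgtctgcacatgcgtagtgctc
Atp5g2: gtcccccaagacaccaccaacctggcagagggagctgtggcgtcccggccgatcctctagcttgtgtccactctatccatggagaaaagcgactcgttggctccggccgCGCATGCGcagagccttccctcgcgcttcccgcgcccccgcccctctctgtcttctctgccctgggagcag
Both promoters hold the same core and their genes changed by different amounts. A match of letters is a description of the sequence and not of binding.

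Markers of other cells moved beside the members. Of 13 measured heart muscle markers 12 were lower and 1, Tpm1, was higher in the infarct at 1 week, with a median of -2.21. In remote tissue 2 (Ryr2 and Ckm) were lower and 1 higher, with a median of -0.39. The summed intensity of the heart muscle list was 219785 to 247348 in sham, 154913 to 197894 in remote tissue and 29138 to 88139 in the infarct at 1 week. That of the fibroblast list was 23139.6 to 24387 in sham, 72460.2 to 79824 in the infarct and 74918 to 86729 in remote tissue. The macrophage list gave 6523 to 8720.4 in sham, 48522 to 55275 in the infarct and 26800.3 to 39990.6 in remote tissue, with 11 of 11 markers higher in both. At the other times of a fall in the infarct, neutrophil markers were higher for 7 of 9 at 24 h and 7 of 9 at 48 h, and macrophage markers for 6 and 8 of 11. Of the 13 heart muscle markers 1 was lower at 24 h and 11 at 48 h, against 24% and 25.8% of all genes. Their median change was -0.28 at 24 h and -0.92 at 48 h. At 24 h the list stood at 75.9%, 85.3% and 78.7% of sham on the 3 infarct arrays. At 8 weeks 7 of 9 fibroblast, 9 of 11 macrophage and 3 of 5 fat cell markers were higher in the infarct. Lower there were 1 of 5 fat cell markers and 1 of 13 heart muscle markers, against 9.66% of all genes. The median change of the heart muscle markers was -0.45 at 8 weeks. The shares of all genes higher in the infarct at 24 h, 48 h and 8 weeks are not given here. The part of these cells in the changes of the members was not tested.

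Among the sham arrays the median of the members differed little between times. It lay between 95.2% and 105.9% of their mean over all sham arrays. Single members varied more, from 33.4% of their sham mean at 48 h to 148.9% at 1 week. By a limma F test 7 members differed between times in sham, against 20.4% of all genes: Atp5d, Atp5g1, Cox8c, Ndufaf1, Ndufaf4, Ndufb3 and Uqcrc1. The count was 3 without the second sham array of 1 h. Between lower and upper sham ventricle 0 members and 0% of all genes were called by limma (5 members at an unadjusted p below 0.05), with a median of -0.02 over the members and single differences from -0.30 to 0.38. With the sham lower array alone as control, the infarct median was -0.49 at 24 h, -1.03 at 48 h and -1.79 at 1 week. Lower members were then 21, 61 and 61, with the share of all genes not counted.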

How the data were processed

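The deposited values were probe set intensities on a linear scale, already scaled by the authors: the mean after trimming at the 2nd and the 98th percentile was 499.2 to 499.9 on every array. The software is not given in the sources used here. Of 12488 probe sets, 10833 named 1 gene. Left out were 66 control probe sets, 396 with several genes and 1193 with none. A gene was read by its probe set with the highest mean. Genes reaching 108.2 (the 40th percentile) on 3 arrays were kept, 6670 in all, and 45.6 (0.25 times the median) was added before log2. Gene names came from the platform table and were checked against GRCm38.p6.

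limma 3.58.1 (R 4.3.3) was fitted to 23 groups of region and time over 59 arrays, with the title number as a random block (correlation 0.148), 36 residual and 4.43 prior degrees of freedom. Benjamini-Hochberg adjustment was applied per comparison. Ratios of isoforms were tested by permutation. The scripts were tested on simulated data, and matplotlib 3.10.9 under Python 3.11.15 drew the figures.

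The members and the gene lists were chosen with earlier results of these data known. Named with values are the 3 greatest and 2 smallest changes of each complex in the infarct at 1 week, members called higher, up to 3 called in remote tissue per time, members never called in the infarct, those whose probe sets disagree, a fixed panel, and the 2 greatest changes of each pathway list. The alternatives tried were a smaller and a greater offset (multiples of 0.05 and 1), quantile normalization, the mean of probe sets, fits with no filter, with no block or with a fixed one, a fit to 2 groups at a time, both sham regions pooled as control, and leaving out each array. The sham lower array alone was added after the data were seen.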

Additional observations from a re-analysis of the deposited data

Results flagged for a closer look

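The infarct effect of 61 members at 8 weeks lay above that at 1 week by limma's test of the difference, and the remote effect of 28 members did so. The infarct effect of 63 members differed between the 6 times by the F test. All 3 counts mark a difference of effects between times that was itself tested, and no explanation was weighed. The sham arrays differ between times too, so that each effect is relative to sham of its own time.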

How the results depend on the processing

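The lower counts in the infarct against sham at 48 h and 1 week stayed within 1.5 times under every alternative run, as did the 1-week count against remote tissue. Against the sham lower array alone, 21 members were lower in the infarct at 24 h and 28 in remote tissue at 1 week, with the share of all genes not counted. Quantile normalization moved the 1-week infarct median of all genes from 0.11 to -0.07 and the members' median relative to it from -2.08 to -1.62. At 8 weeks the lower count against sham was 19 after quantile normalization, 0 with only the 2 groups fitted, and 7 to 52 with 1 array left out.

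The title numbers recur in 17 pairs of infarct and remote arrays, of which 7 had correlated deviations over 0.1 (-0.098 to 0.418), so the numbers are not shown to pair the samples. With no replicate block the counts lower in the infarct than in remote tissue were 24 at 24 h, 62 at 48 h and 57 at 1 week, and with a fixed replicate block 27, 61 and 57. At 8 weeks this count was 2 with no block, 8 with a fixed block, 22 with an offset of 1 times the median, 5 after quantile normalization, 6 with no filter, 8 with the mean of probe sets, 0 with only the 2 groups, and 0 to 45 with 1 array left out. At 24 h it was 18 with only the 2 groups and 15 to 29 with 1 array left out.

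Small counts moved as follows. Infarct above sham at 1 week became 0 (quantile, both sham regions, sham lower alone, 0 to 1 with arrays left out). Infarct above sham at 1 h became 0 (2 groups, both sham regions, sham lower alone, 0 to 1), at 4 h 1 (mean of probe sets) or 2 (2 groups), and at 48 h 1 (2 groups). Infarct below sham at 4 h became 0 (no filter, both sham regions, sham lower alone, 0 to 1). Remote above sham at 48 h became 1 (quantile, 2 groups) or 0 (sham lower alone, 1 to 2), and at 1 h 1 (mean, 2 groups) or 0 (sham lower alone, 0 to 1). Remote below sham at 48 h became 1 (mean), 0 (2 groups) or 6 (both sham regions, 1 to 4), and at 1 h 0 (2 groups, sham lower alone, 0 to 1). Infarct above remote at 1 h became 3 (mean) or 0 (2 groups, 0 to 1), and at 24 h 1 (2 groups). The remote rise from 1 to 8 weeks became 18 (quantile, 13 to 30), and the sham time count ranged from 3 to 8. The causes were not tested.

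The ratio of Cox8b to Cox8a, whose Cox8a lies under the threshold, was called with the main offset: -0.887 (infarct minus sham), -0.367 (remote minus sham) and -0.521 (infarct minus remote). With an offset of 0.05 times the median the permutation test made no call, with -0.761 (adjusted p = 0.051), -0.319 (adjusted p = 0.19) and -0.442 (adjusted p = 0.14). The mean of probe sets also lost the last, with -0.402 (adjusted p = 0.057), as did leaving out the third infarct array of 8 weeks, and its range over arrays left out was -0.592 to -0.424. For Cox6a2 to Cox6a1 infarct minus remote ranged from -0.473 to -0.287. Reversed were Cox6c at 8 weeks with the mean of probe sets (0.031) and Cox8c at 1 week against sham lower alone (-0.351). The offset limits what dim members can show.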
